A study of Mus musculus with 4 samples.

Results

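Distal intergenic induced-only peaks are peaks of a ChIP for HA-tagged Fbxl10 that lie away from genes and were called in doxycycline-treated cells alone. Whether each called peak is a binding site was not tested, and the list of the non-induced cells held more peaks, 10532. They were taken from the peak list of the induced cells (mm10) as peaks that overlapped no peak of the non-induced cells by even 1 bp. Their midpoint also had to lie outside every protein-coding gene, more than 5 kb from both ends of every such gene, and more than 1 kb from both ends of every gene of another biotype. The rule found 952 peaks among the 5312 induced-only peaks, which were 96.6% of the 5497 in the induced list. The peaks were thus chosen by whether they were called in each list and by where they lie, so their share, distance and nearness to the other list below are descriptions of what the rule kept.

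The study expressed HA-tagged Fbxl10 in mouse embryonic fibroblasts (MEFs), connective tissue cells grown from embryos, and precipitated chromatin with an HA antibody (ChIP-seq). The induced cells carried the HA-Fbxl10 construct and received 1 µg/ml doxycycline for 48 hours. The non-induced cells carried the same construct without doxycycline, so both groups share the genotype. No source used here states the strain, the promoter of the construct or the age of the embryos. There is 1 peak list per condition. The protocol mentions 3 independent samples without saying which of them a list holds. Values below describe 2 lists and have no replicate check. Intervals are exact 95% intervals that cover counting error only, and read depth is unknown. A peak list holds no expression values, so the cell type was not checked against its markers.

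Fbxl10, also called Kdm2b, is an F-box protein that removes methyl groups from histone H3. Its zinc finger CXXC domain binds DNA that is rich in unmethylated CpG, and it recruits a Polycomb complex, PRC1.1, that adds ubiquitin to histone H2A. CpG-rich DNA in mammals lies mostly at gene starts. Intergenic sites are therefore the part of its map that is farthest from its best-known targets, and in general such DNA holds enhancers, unannotated transcription starts and repeats.

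Most of the distal peaks lay outside the stretches for which reference sequence was used here. These stretches are windows from 250 bases before to 50 bases after annotated gene starts (RefSeq, GRCm38.p6). The rule itself keeps distal peaks away from gene ends, so a low count of touched windows was set in advance. Of 32851 windows, 851 had a midpoint that met the position rule, and 1 touched a distal peak. It belongs to an inner start of the long non-coding RNA Gm39558 (chr15:85001207-85001506, plus strand), and 250 of its 300 bases lay inside a peak of score 58.1 (chromosome 15, 85001257 to 85001978). It is printed because it is the one sequence held here from inside a distal peak. Printed with it are promoter windows that lay wholly inside another induced-only peak and whose gene was the nearest coding gene of a high-scoring distal peak: Axin2 (chr11:108920099-108920398, plus strand) and Zfp36l1 (chr12:80112964-80113263, minus strand). These are the top-ranked genes of that kind by the score of the distal peak. Capitals mark CG dinucleotides, and each sequence runs 5′ to 3′ on the strand of its gene.
Gm39558: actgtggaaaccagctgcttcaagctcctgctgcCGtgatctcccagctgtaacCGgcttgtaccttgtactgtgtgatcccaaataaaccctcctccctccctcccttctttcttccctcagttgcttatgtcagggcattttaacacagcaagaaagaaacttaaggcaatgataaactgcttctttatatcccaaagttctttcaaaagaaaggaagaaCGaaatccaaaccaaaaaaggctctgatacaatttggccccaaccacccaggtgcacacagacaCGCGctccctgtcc
Axin2: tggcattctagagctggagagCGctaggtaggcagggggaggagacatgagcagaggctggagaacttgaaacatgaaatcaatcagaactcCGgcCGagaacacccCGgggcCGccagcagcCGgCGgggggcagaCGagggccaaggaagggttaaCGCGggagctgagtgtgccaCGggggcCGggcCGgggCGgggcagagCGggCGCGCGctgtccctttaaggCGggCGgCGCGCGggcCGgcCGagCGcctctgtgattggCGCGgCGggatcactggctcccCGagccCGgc
Zfp36l1: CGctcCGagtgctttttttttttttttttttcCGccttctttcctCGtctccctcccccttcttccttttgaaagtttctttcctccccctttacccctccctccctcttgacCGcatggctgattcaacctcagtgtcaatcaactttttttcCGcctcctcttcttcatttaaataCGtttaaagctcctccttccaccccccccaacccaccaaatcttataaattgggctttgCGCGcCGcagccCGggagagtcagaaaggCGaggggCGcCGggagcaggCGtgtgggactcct

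The windows differed in CpG content. The Gm39558 window held 5 CG and a GC content of 47%, the Axin2 window 31 CG and 70%, and the Zfp36l1 window 15 CG and 52%. Over all windows the median was 7 CG (quartiles 3 and 20). In the 1279 windows wholly inside an induced-only peak of any class it was 24 (18 and 30). In the 851 windows whose midpoint met the position rule of the distal peaks it was 3 (1 and 5). The window inside the distal peak thus had fewer CG than most windows inside induced-only peaks of any class, and 1 window cannot stand for 952 peaks. No genome sequence was used here, so the CpG content of the other 951 peaks was not measured.

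Distal peaks had low scores beside the other classes of induced-only peaks. Each peak carries a score written by the authors' peak caller, MACS, which began at 50 in this list. No source used here states its formula. The median score of the distal peaks was 57.4 (interval 57.0 to 58.3), with quartiles of 53.2 and 66.7 and a highest value of 250.5. Induced-only peaks at the border of a coding gene, meaning a midpoint within 1 kb of either end, had a median of 77.9 (75.9 to 80.2, n = 2197). Those deeper inside coding genes had 63.9 (62.8 to 64.9, n = 1737), those 1 to 5 kb outside 66.0 (62.7 to 70.1, n = 278), and those at borders of other genes only 64.8 (60 to 70.1, n = 148). The interval of the distal peaks did not overlap that of any of these classes. Peaks of the non-induced list that overlap no induced peak are called non-induced-only. Those in the same kind of position had a median score of 59.98 (59.66 to 60.27, n = 6025), above that of the distal peaks. Read depth is unknown, so scores of the 2 lists may not share a scale.

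The upper tail was thin as well. A score of at least 100 was reached by 49 distal peaks (5.15%, 3.83 to 6.75), against 20.3% of all induced-only peaks and 29.3% (27.4 to 31.3) of those at coding borders. At the other end, 566 distal peaks (59.5%, 56.3 to 62.6) had scores under 60, against 26.0% of border peaks. Among the 6025 non-induced-only peaks in the same kind of position, 50.2% (48.9 to 51.4) were under 60 and 2.77% (2.37 to 3.22) reached 100. Of the induced peaks in the same kind of position that did overlap a non-induced peak, and so are not counted here, 68 were found, with a median score of 91.4, and 31 of them reached 100. No test of peaks against peaks was run, since peaks of 1 list are not replicates.

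**Figure D1:**
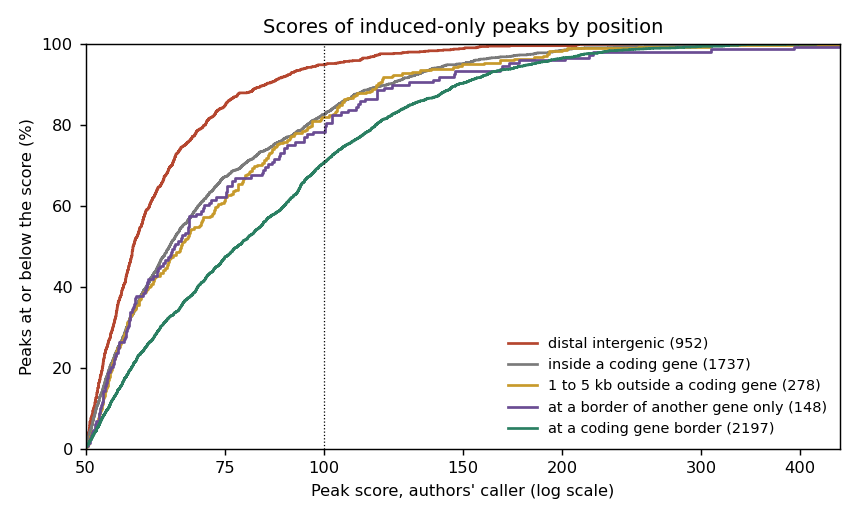
Cumulative share of induced-only peaks (y axis, %) at or below each peak score (x axis, log scale, which ends below the few highest scores of other classes) for the 5 position classes, with the number of peaks in each; the dotted line marks a score of 100. The distal curve lies to the left of the others, with a median of 57.4 against 77.9 at coding gene borders.

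Width followed score. The median width of the distal peaks was 643 bp (635 to 648), the narrowest measured 388 bp and the widest 2027 bp, against a median of 860 bp (843 to 872) at coding borders. Within the distal peaks the median width was 601 bp for scores of 50 to 55 (345 peaks), 653 bp for 60 to 75 (241 peaks) and 1106 bp from 100 upward (49 peaks). Across the 952 peaks score and width had a Pearson's r of 0.655 and a Spearman's rho of 0.425. The 3 widest lay near Creb3l1 (2027 bp, score 208) and near Gm13212 and the zinc finger gene Zfp992 on chromosome 4 (1942 and 1777 bp, scores 136 and 118). The correlation is a description across peaks, whose score and width come from the same reads.

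The highest distal peak lay beyond Axin2, a scaffold of the complex that degrades beta-catenin and itself a Wnt target. It had a score of 250.5, lay on chromosome 11 from 109011239 to 109012229 inside the long non-coding gene Gm36876, and was 61.0 kb from the end of Axin2. The induced-only peak over the Axin2 promoter window shown above scored 65.3 in the same list. That window lies inside the gene's annotated span and more than 1 kb from its ends, so the gene does not count as having a border peak. The nearest non-induced peak was 11.7 kb from the distal peak.

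The next 3 stood close together at 208 to 210.1. One of 210.1 lay 6.95 kb from Trim7, a ubiquitin ligase gene, on the side of the interferon-induced GTPase gene Irgm1 (chromosome 11, 48857474 to 48858802), and 1.08 kb from the transfer RNA gene n-TLaag6. Another of 209 lay 5.68 kb from Meis2, a homeobox factor of limb and face (chromosome 2, 115854740 to 115856433). The widest distal peak, of 208, lay 35.0 kb from Creb3l1, a membrane-bound transcription factor of the secretory pathway, between it and Phf21a (chromosome 2, 92058195 to 92060221). The nearest non-induced peaks were 86.4, 78.4 and 283 kb away.

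Scores from 142 to 172 made up the rest of the top 15. They lay nearest to Gm2808 (172), the mitotic checkpoint kinase gene Wee1 (161), the pancreatic elastase gene Cela3a with the small GTPase gene Cdc42 on the other side (158), Ankrd60 (157) and Gm52481 on chromosome Y (156). Next came the forkhead gene Foxp4 (151), the adhesion receptor gene Adgrl1 (150.4), the metabolic gene H6pd (148), Zfp36l1 (146), the transcription factor gene Ebf1 (145) and Mier3, with the kinase gene Map3k1 on the other side (142). The Zfp36l1 peak lay 90.8 kb away, and the gene's own promoter window, shown above, was inside a peak of 280.3. For Axin2 the distal peak was the higher of the pair, and for Zfp36l1 it was the lower. Of the 15 highest, 5 lay inside a gene of another biotype, 3 had a non-induced peak within 10 kb, and 6 had a nearest coding gene with an induced border peak of its own, as did 18.9% of all autosomal distal peaks.

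Distal peaks thinned out with distance from coding genes. The median distance from a midpoint to the nearest coding gene was 61.5 kb (54.1 to 65.9), with quartiles of 20.1 and 179 kb. To allow for how much space lies at each distance, the positions that meet the rule were measured on the autosomes, where they come to 1266 Mb or 51.8% of the span from the first to the last gene. Sequence gaps were not removed. The density was 1.12 peaks per Mb (0.917 to 1.37) at 5 to 10 kb and 1.1 (0.948 to 1.27) at 10 to 25 kb. It was 0.637 (0.543 to 0.741) at 100 to 250 kb and 0.435 (0.353 to 0.531) beyond 500 kb. The intermediate values, 0.838 at 25 to 50 kb and 0.969 at 50 to 100 kb, have overlapping intervals.

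Non-induced-only peaks that meet the same position rule ran the other way. There were 6025 of them, 58.2% of 10345 non-induced-only peaks, against 17.9% (16.9 to 18.98) of the induced-only peaks. On the autosomes their density went from 3.37 per Mb (3.01 to 3.77) at 5 to 10 kb to 6.50 (6.17 to 6.85) beyond 500 kb, and their median distance was 180.2 kb (172 to 190.4). The threshold of 5 kb cut through a continuous range. The distal peaks just inside it lay near Plek2 (5.10 kb, score 69.0), the adhesion gene Selp (5.13 kb, 64.7) and the zinc finger gene Zfp979 (5.14 kb, 67.9). The induced-only peaks just outside lay near Jakmip2 (4.99 kb, 84.2), Cpe (4.89 kb, 50.5) and Speer4e (4.85 kb, 53.3).

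**Figure D2:**
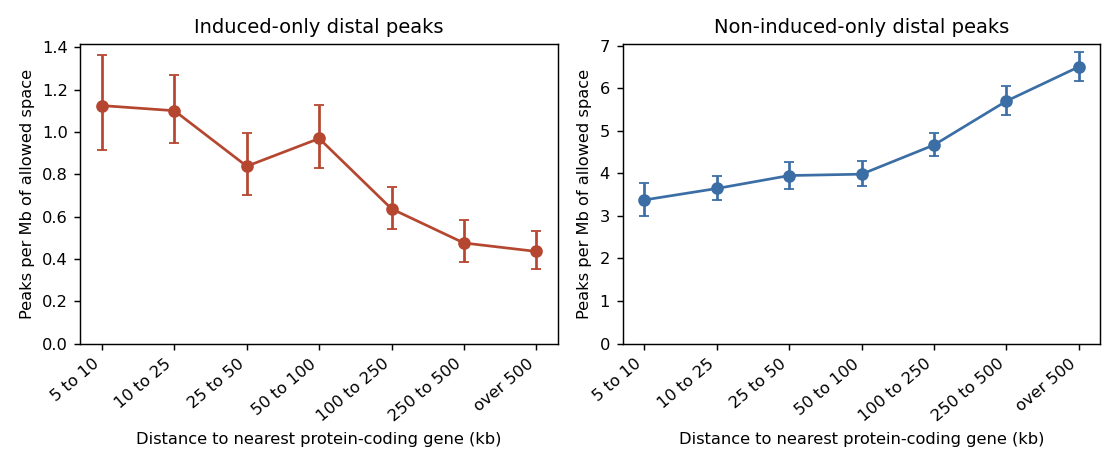
Peaks per Mb of autosomal space that meets the position rule (y axes, separate scales from 0) by distance to the nearest protein-coding gene in kb (x axis) for induced-only (left) and non-induced-only (right) distal peaks; bars are exact Poisson intervals at 95%. From the nearest to the farthest bin density goes from 1.12 to 0.435 in the induced-only peaks and from 3.37 to 6.50 in the non-induced-only peaks.

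High scores lay nearer to genes than low ones. Of the 49 distal peaks with a score of at least 100, 36 (73.5%, 58.9 to 85.1) lay within 50 kb of a coding gene and 7 lay over 100 kb away. The median distance was 21.6 kb (10.96 to 29.5) for these peaks, 39.5 kb (29.0 to 55.7) for scores of 75 to 100 and 77.0 kb (63.1 to 90.9) for scores of 50 to 55. In between it was 61.5 kb (47.5 to 73.2) for scores of 60 to 75 and 66.7 kb (46.1 to 95.6) for 55 to 60. Both of these intervals overlap that of the lowest class. On the autosomes a score of 100 was reached by 14.7% (8.47 to 23.1) of the 102 peaks at 5 to 10 kb and by 1.21% (0.147 to 4.31) of the 165 at 100 to 250 kb. Farther out it was 3.26% (0.678 to 9.23) at 250 to 500 kb and 2.08% (0.253 to 7.32) beyond 500 kb, with intervals that overlap that of the bin at 100 to 250 kb. Across all 952 the correlation of score and distance was weak (Spearman's rho -0.151, Pearson's r -0.0979), though the median distance was lower in each higher score class. The 3 farthest of the 49 lay 999 kb from Arrdc3, between it and Nr2f1 (117), 522 kb from Nedd1 inside the long non-coding gene Rmst (116), and 373 kb from Csmd1 (123). The peak farthest from a coding gene lay 1683 kb from Celf4 and scored 56.2, followed by 1 at 1656 kb from Slitrk5 (51.1) and 1 at 1569 kb from Pcdh17 (60.8).

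Developmental transcription factors were the nearest coding gene of a similar share of distal peaks and of all induced-only peaks, 3.71% and 3.69% on the autosomes. The list of 119 such genes was written with earlier results of these data known, and 46 of its genes have an induced border peak. The list is therefore no independent evidence. On the autosomes 35 distal peaks (3.71%, 2.60 to 5.12) had a listed factor as the nearest coding gene, in 27 different genes, while these genes were the nearest in 2.69% of the allowed space. At 5 to 10 kb the count was 11 of 102 (10.8%, 5.51 to 18.5) for 1.03% of the space there, and 6 of 306 (1.96%, 0.723 to 4.22) among non-induced-only distal peaks. At 10 to 50 kb it was 11 of 318 (3.46%, 1.74 to 6.10) for 1.86% of the space, at 50 to 250 kb 7 of 335 (2.09%) for 3.49%, and beyond 250 kb 6 of 188 (3.19%) for 2.86%.

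The 11 close peaks lay at 10 genes. Besides Meis2 (209) and Ebf1 (145) these included Foxd1 of kidney stroma (9.34 kb, 125), Foxf1 of lung and gut mesenchyme (8.84 kb, 111), inside the non-coding gene Fendrr, and Twist1 of mesoderm and neural crest (8.0 kb, 95.2). Tfap2a (8.72 kb, 75.2), Nr2f1 (7.26 kb, 54.99), Tbx3 (7.71 kb, 50.5) and Meis1 (6.95 kb, 50.2) had lower scores. The nearest gene had an induced border peak of its own for 8 of the 11. All 5 distal peaks of score 100 or more with a listed factor as nearest gene were among these 11.

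Farther away the factors with peaks included Nfib (31.5 kb, 98.4), Foxd1 again (34.3 kb, 84.4), Dlx2 (34.6 kb, 72.5), Hand2 (33.1 kb, 65.0, and 17.0 kb, 50.8) and Nr2f2, a nuclear receptor of mesenchyme, with 3 peaks between 24.5 and 538 kb and scores of 54.7 to 73.1. A nearest gene is a position and not a shown target. In gene-poor stretches the nearest gene can lie very far off, as for Zeb2 at 1420 kb (52.4).

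**Figure D3:**
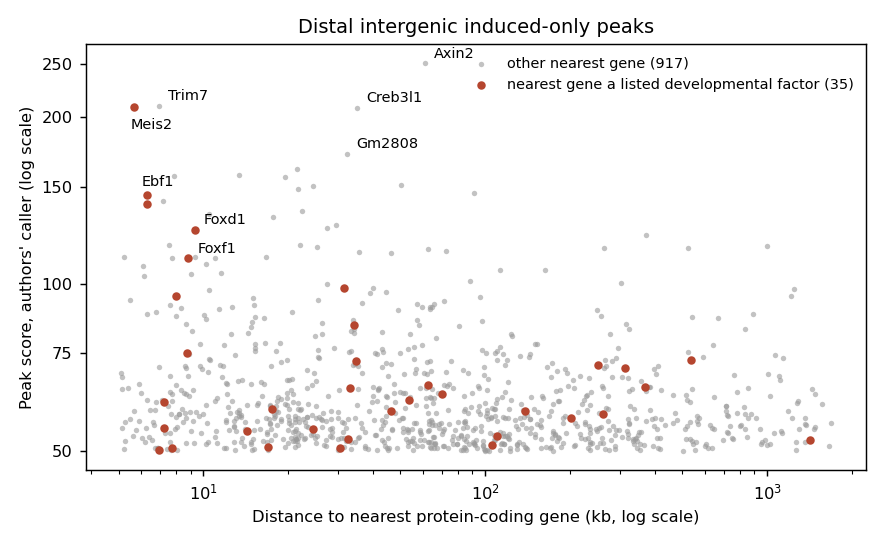
Peak score (y axis, log scale) against distance to the nearest protein-coding gene (x axis, kb, log scale) for the 952 distal peaks; red points have a listed developmental transcription factor as nearest gene (35 peaks), and some of the highest are named. The 5 red points of score 100 or more all lie between 5.68 and 9.34 kb from their gene.

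Genes with an induced peak at a border were somewhat more often the nearest gene than their share of space. Of all 21900 coding genes 13.4% had an induced border peak within 1 kb. On the autosomes 178 distal peaks (18.9%, 16.4 to 21.5), at 144 genes, had such a nearest gene, for 13.9% of the space and 14.03% (840 peaks) of non-induced-only distal peaks. The share was 26.5% (18.2 to 36.1) at 5 to 10 kb, for 11.6% of the space there, 21.1% (16.7 to 26.0) at 10 to 50 kb and 15.4% (10.6 to 21.4) beyond 250 kb. Border peaks and distal peaks come from the same ChIP and the same peak calling, so neither is independent evidence for the other. For 48 distal peaks (5.04%), at 38 genes, a promoter window of the nearest gene lay wholly inside an induced-only peak. Over all 27025 genes with promoter windows, coding or not, 1166 had such a window. The share of space nearest to such genes was not measured, so the 48 show no preference. After Axin2 and Zfp36l1 the highest of the 48 were near Mef2c, a myocyte and neural factor (90.8, 59.6 kb, with 10 CG in the window), and Amotl2, a Hippo pathway scaffold (84.9, 26.3 kb, with 26 CG). A nearest gene with a non-induced border peak, which 1.59% of coding genes had, was found for 35 distal peaks (3.71%, 2.60 to 5.12), for 2.27% of the space.

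Signalling, early response and matrix genes were the nearest gene of few distal peaks. All counts in the next sentences are for the autosomes and carry no test. Of the 107 listed genes of the Wnt, Notch, TGF-beta, BMP, FGF and hedgehog pathways, 11 had 12 distal peaks (1.27%, 0.659 to 2.21) for 0.987% of the space. Besides Axin2 the highest were the hedgehog receptor gene Ptch1 (95.9 kb, 94.7) and Fgfr2 (101 kb, 64.4), and the lowest was the BMP-family ligand gene Gdf6 (502 kb, 50.04). Notch3 (52.6), Lef1 (53.1), Dkk2 (57.6) and Smad1 (55.1) also had 1 each.

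Immediate early genes, the first switched on by growth signals, had 6 distal peaks (0.636%, 0.234 to 1.38) at 4 genes, for 0.393% of the space. Myc had peaks at 268 and 888 kb (59.8 and 88.5), Klf6 at 263 and 350 kb (70.6 and 54.1), Jun at 109.6 kb (75.7) and Egr2 at 53.0 kb (54.1). Fibroblast matrix and cytoskeleton genes had 9 (0.954%, 0.437 to 1.80) at 8 genes, for 0.892% of the space. The highest were at Ncam1 (65.0), Thbs2 (60.2) and the proteoglycan gene Dcn (57.4), and the periostin gene Postn (56.0), the fibronectin gene Fn1 (55.8) and the tenascin gene Tnc (54.8) followed. All 9 scores were 65.0 or lower, with a median of 56.0. Such scores were common, since the upper quartile of all distal peaks was 66.7 and their median 57.4.

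**Figure D4:**
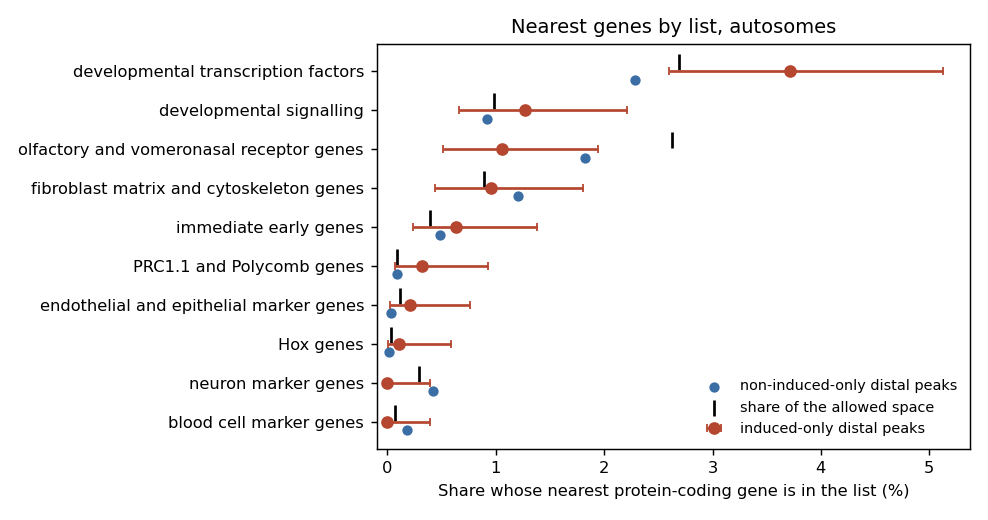
Share of autosomal distal peaks (x axis, %) whose nearest protein-coding gene belongs to each list (y axis), for induced-only peaks (red, exact 95% interval), non-induced-only peaks (blue) and the allowed space (black bars). The interval of the olfactory and vomeronasal receptor genes, 0.510 to 1.94, lies below their share of space, 2.63, and those of the other lists include theirs, also where the count is 0. Among all induced-only peaks, not drawn, the share of the receptor genes was 0.435.

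Polycomb genes had 4 distal peaks in all, 3 of them on the autosomes (0.318%, 0.0657 to 0.927) for 0.0918% of the space. A pair lay 13.7 and 16.2 kb from Cbx8 (67.1 and 62.7), the gene of a reader of a repressive histone mark, and 1 lay 408 kb from Jarid2 (71.2). The last, 30.0 kb from the PRC1.1 gene Bcor (57.4), was 1 of only 3 distal peaks on chromosome X. Hox genes were the nearest gene of 1 distal peak, 49.1 kb beyond Hoxc4 (89.7), which is 0.106% for 0.0286% of the space, and of 0.491% of all induced-only peaks. At Kdm2b itself (chromosome 5, 122870664 to 122989270) 1 distal peak lay within 250 kb, 68.8 kb away, with a score of 52.95, and its nearest gene was Morn3.

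Short lists of markers of other cell types gave small counts. Endothelial and epithelial markers had 2 peaks (0.212%), near Emcn (57.1) and Cdh5 (50.2), for 0.116% of the space and 0.170% of all induced-only peaks. Neuron and blood markers had 0 of 943 autosomal peaks, which allows up to 0.318%, for 0.289% and 0.0724% of the space, so a lower share could not be detected for either. Olfactory and vomeronasal receptor genes, a list added after the data were seen, had 10 (1.06%, 0.510 to 1.94) for 2.63% of the space, and 1.82% of non-induced-only distal peaks. Among all induced-only peaks the share was lower still, 0.435%, so a low share was not particular to the distal peaks. The highest of the 10 scored 66.0, near Vmn2r129.

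Non-coding genes surrounded some of the distal peaks, since the rule keeps their borders clear but not their inner part. Of the autosomal distal peaks 166 (17.6%, 15.2 to 20.2) lay inside a gene of another biotype, for 12.9% of the space and 11.1% (10.4 to 12.0) of non-induced-only distal peaks. Long non-coding RNA genes held 147 of the 166, pseudogenes 9 and transcribed pseudogenes 5. Besides Gm36876, Rmst and Fendrr they included Gm52681 near Cela3a (158), Gm12796 near the cytokine kinase gene Jak1 (126) and Junos near Jun. Scores inside non-coding genes had a median of 59.4 (57.4 to 62.5) and those outside every gene 57.3 (56.7 to 57.8). These intervals overlap.

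Most distal peaks had no other distal peak within 10 kb. Another distal peak lay within 10 kb of 51 (5.36%, 4.01 to 6.98) and any other induced peak within 10 kb of 79 (8.30%, 6.62 to 10.2). Non-induced-only distal peaks, which were denser (4.73 against 0.745 per Mb on the autosomes), had another of their kind within 10 kb in 13.1%. The share that an even spread would give was not measured. The 51 distal peaks with another nearby formed 23 groups, of which 21 were pairs. The group with most members, 5 peaks in 13.9 kb near Gm52481, lay near the end of chromosome Y, with scores of 63.8 to 156. A non-induced peak lay 1.69 kb from the highest of the 5. Next came 4 peaks in 8.27 kb near Gm10654 on chromosome 8, with scores of 51.4 to 91.1 and no non-induced peak within 103 kb. Pairs included those at Nfib, Cbx8, the homeobox genes Lbx1 (63.5 and 58.3) and Barhl2 (76.8 and 54.3), and the prostaglandin receptor gene Ptger4 (87.7 and 51.7).

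The zinc finger gene stretch at the far end of chromosome 4 held several of these groups, with pairs near Gm13212, Zfp992 and Zfp600. Bins of 1 Mb with at least 3 peaks shared by both lists held 28 distal peaks, 18 of them on chromosome 4, and 4 of the 49 with a score of at least 100. Without these bins, an alternative added once the data had been seen, the share of distal peaks with another within 10 kb was 3.90%.

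Some distal peaks lay close to peaks of the non-induced list. A non-induced peak of any class lay within 10 kb of 107 distal peaks (11.2%, 9.30 to 13.4) and within 50 kb of 377 (39.6%). In the other direction, an induced peak of any class lay within 10 kb of 2.44% of non-induced-only distal peaks and within 50 kb of 11.4%. Of the non-induced-only distal peaks, 13.1% had another of their kind within 10 kb and 44.6% within 50 kb. These values count distal neighbours only and are not a like comparison. The density of non-induced-only distal peaks was 4.73 per Mb on the autosomes, and the share for random positions was not measured. The distal peak nearest to a non-induced peak lay 0.597 kb from it by midpoint, 985 kb from Ankrd7 (52.2). Next were peaks near Epha7 (0.853 kb, 51.5), Mtap (0.911 kb, 58.4), the innate immune receptor gene Tlr4 (0.921 kb, 59.2) and Gbe1 (0.943 kb, 52.4). All 5 had scores under 60, near the lower limit of the list. With peaks up to 1 kb apart counted as shared, 930 distal peaks remained.

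The density of distal peaks varied between chromosomes and was lowest on X and Y. Over the 19 autosomes the density was 0.745 per Mb (0.698 to 0.794), with the lowest value on chromosome 12 (0.470, 0.323 to 0.659) and the highest on chromosome 4 (1.02, 0.815 to 1.26). These extremes were picked by their values, so that their intervals do not overlap is no test of a difference. Of the 84 peaks on chromosome 4, 18 lay in the bins with shared peaks. Non-induced-only distal peaks ranged from 2.97 on chromosome 7 to 6.27 on chromosome 3. Chromosome X had 3 distal peaks (0.0264 per Mb, 0.00544 to 0.0771) where the autosomal density gives 84.7. In the non-induced list it had 28 where the density gives 538, so both lists were sparse there. The 3 on X had scores of 56.0 to 57.4. Chromosome Y had 6, all near Gm52481.

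**Figure D5:**
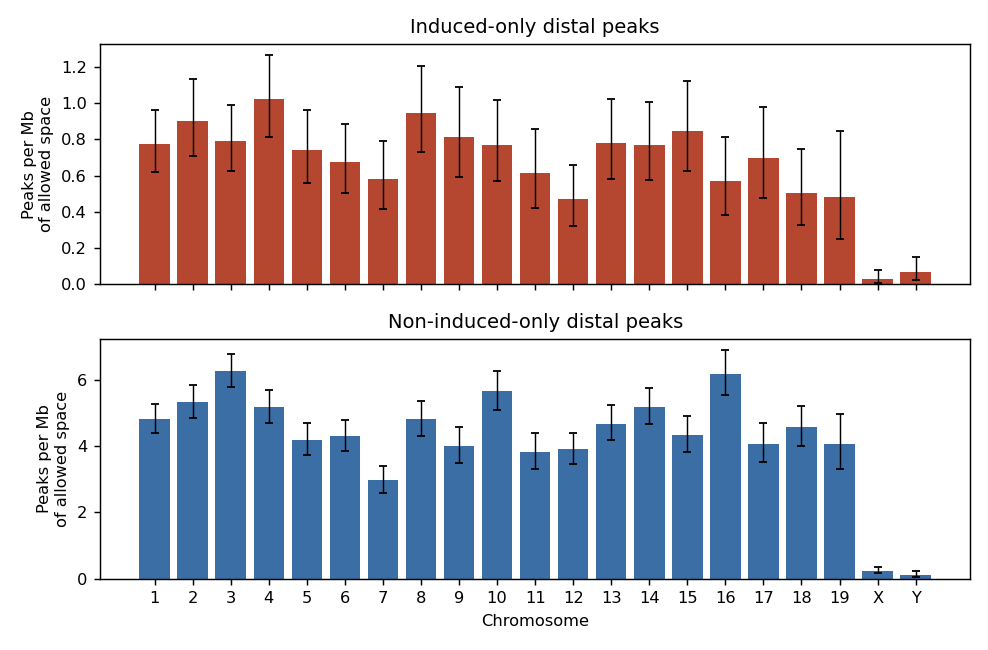
Distal peaks per Mb of space that meets the position rule (y axes, from 0, separate scales) on each chromosome (x axis) for induced-only (top) and non-induced-only (bottom) peaks; bars with exact Poisson intervals at 95%. Induced-only density lies between 0.470 and 1.02 on the autosomes and at 0.0264 on chromosome X.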

How the data were processed

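The deposited files are 1 peak list for each ChIP group, with a position and a score for each peak; the score is the authors' caller's own value. MACS called the peaks, per the peak names in the files. Bowtie2 and mm10 are named in the submitters' processing notes. No source used here states versions, the score's formula, the threshold or pooling. The names of the lists carry a mark that may stand for input, and how input was used is not stated. Each list was matched to its group by the marks w and wo in its name, read as the W and W/O of the sample titles; the label for doxycycline is on the W samples. The protocol used 7 µg of chromatin and 5 µg of HA antibody, per the labels. Input libraries were not used here.

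Genes came from the RefSeq table of GRCm38.p6, the assembly that mm10 names, and the promoter sequences from the RefSeq promoter table of the same build. Allowed space was measured on positions 200 bp apart between the first and last gene of a chromosome. Shares have Clopper-Pearson intervals, medians order-statistic intervals and densities Poisson intervals, all exact at 95%. For a share of 0 the limit is 3 counts over the total. No tests were run. Sequence content of the peaks was planned and not run, since no genome was used here.

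Members and lists were chosen with earlier results of these data known. Named peaks are the 15 highest, the 3 widest, nearest and farthest, those at the 5 kb limit, the 3 groups with most members (ties by the highest score), the 5 nearest to non-induced peaks, up to 3 per list and those near Kdm2b; further peaks were named after their values were seen, and 1 gene that the rule names is not reported here. Of 600 simulated positions, 600 were classed as by an independent search, and the shared induced peaks differed by 0 from bedtools 2.31.1. Alternatives changed the overlap, score, distances, biotypes, midpoint and chromosomes. Software was matplotlib 3.10.9, SciPy 1.17.1, pandas 2.3.3, numpy 2.4.6 and Python 3.11.15.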

Additional observations from a re-analysis of the deposited data

How the results depend on the processing

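Of 132 values of 11 results under 12 alternatives, 86 stayed within the counting interval of the reported value, or within 1.5 times the reported number, and 46 did not. With a minimum score of 61.6, the median of both lists together, there were 354 distal peaks, 11.2% of induced-only peaks, with a median score of 72.5, a median width of 725 bp and a median distance of 46.2 kb. Of these 14.4% reached a score of 100, 2.82% had another distal peak and 6.50% a non-induced peak within 10 kb, and 5.08% had a listed developmental factor as nearest gene. With both lists at scores of at least 100 there were 56, more than 49 because peaks that overlap weaker non-induced peaks then count. They were 4.98% of induced-only peaks, against 53.3% in the non-induced list, with a median score of 121, width of 1153 bp and distance of 21.6 kb. By construction 100% reached a score of 100; 3.57% had another distal peak and 8.93% a non-induced peak within 10 kb. A developmental factor was nearest to 8.93%, and a gene with an induced border peak to 12.5%, border peaks being thinned by the same limit.

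Beyond 50 kb from coding genes there were 525 (9.88% of induced-only peaks, and 43.2% in the non-induced list), with a median score of 56.5, width of 630 bp and distance of 156 kb. Of these 2.48% reached a score of 100, 2.67% had another distal peak within 10 kb, 2.48% had a developmental factor and 16.0% a gene with a border peak as nearest gene. With limits of 2 and 10 kb the shares were 20.7% and 16.0% of induced-only peaks, 60.5% and 55.3% in the non-induced list, and the median distances 44.0 and 72.5 kb. At 2 kb the developmental factors' share was 5.45%. Ignoring other biotypes gave 20.7% and 59.9%, a median distance of 51.9 kb, 7.36% with a score of at least 100 and 7.45% with another distal peak within 10 kb; keeping 5 kb from them gave 12.9% and 48.3%. With a gap of 1 kb counted as shared 9.14% had a non-induced peak within 10 kb, and without the bins with at least 3 shared peaks 3.90% had another distal peak within 10 kb. An overlap of 50%, the whole peak in place of the midpoint, and autosomes alone moved none of the 11 results past these limits. No paired analysis was possible because there is 1 list per condition. Depth is unknown, and peaks near a score of 50 lie at the limit of the list.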

Other observations

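Some coding genes were the nearest to several distal peaks. The 952 peaks had 789 different nearest coding genes, of which 664 were nearest to a single peak and 10 to 4 or more. Besides Gm52481 and Gm10654 these 10 were Slc10a2, Slitrk1, Sucla2, Ndfip2, Epha7, Tenm3, Pcdh17 and Ets1, with 4 peaks each and highest scores between 64.3 (Ets1) and 92.6 (Slc10a2). The allowed space nearest to these 8 ranged from 0.302 Mb for Ndfip2 to 3.24 Mb for Pcdh17, where the peaks lay 204 to 1569 kb from the gene. Gm10654 had 4 peaks in 0.0724 Mb, all in 1 group of 8.27 kb, while Pcdh7, with 3.58 Mb, had 2. Over the autosomes the density of distal peaks was 0.745 per Mb, and how far space sets the count was not tested. Slitrk1, Epha7, Tenm3 and Pcdh17 encode cell surface proteins of neurons. Among the 8 they also had the most allowed space, and Slc10a2 followed with 1.88 Mb. The short list of neuron markers had 0 of 943 autosomal distal peaks, for 0.289% of the space. Whether neuronal genes were more often nearest than their space gives was not tested. The 10 genes were picked for their counts, so no test was run.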
